A study of Mus musculus with 2 samples.

Results

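The insulin receptor Insr, the IGF1 receptor Igf1r, and 7 genes that carry their signal inside the cell (Irs1, Irs2, Pik3ca, Pik3r1, Akt1, Akt2 and Foxo1) were followed in MIN6 cells. The genes were taken from a list of names. A probe belonged to a gene where the RefSeq accession printed beside its spot maps to that gene, which gave 15 probes of 9 genes among 39417 probes. MIN6 is an insulinoma line from a transgenic C57Bl/6 mouse that releases insulin when glucose rises, and the cells were at passages 15 to 20. One culture received a lentivirus made from PLVX-IRES-ZsGreen-mFTO, which carries mouse FTO, and the control culture received the virus of the empty vector PLVX-IRES-ZsGreen. Both vectors encode the green fluorescent protein ZsGreen, polybrene at 8 µg/ml was present in both, and green fluorescence was looked at after 48 h. The time of RNA isolation and any sorting or cloning of the transduced cells are not given in the sources used here. Each culture was read on 1 single-colour Agilent array, so no value has a replicate, no test between the cultures was possible, and no p-value is given.

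Insulin and IGF1 bind related tyrosine kinase receptors. The activated receptors phosphorylate insulin receptor substrate (IRS) proteins, which recruit phosphoinositide 3-kinase (PI3K), a dimer of a catalytic and a regulatory subunit. PI3K makes the membrane lipid that brings AKT kinases to the membrane, and active AKT keeps the transcription factor FOXO1 out of the nucleus. Beta cells release insulin and carry the same receptors. In mice, IRS2 is needed for growth and survival of beta cells, and FOXO1 in the nucleus opposes the beta cell factor PDX1. Most of this pathway is switched by phosphorylation, which arrays do not measure, so the values below are transcript signals only.

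None of the 9 genes differed by 2-fold between the cultures, by any of its probes. Log2 differences, FTO minus control after quantile normalization, ran from -0.26 at a probe of Akt2 to 0.21 at a probe of Insr. The largest of them in either direction was thus 1.20-fold. Of 18513 named genes tested by their brightest probe, 2.68% differed by more than 2-fold and 6.96% by more than 1.5-fold, and none of the 9 genes did either. Over all 33844 probes tested the shares were 3.48% and 8.77%. The background is lower at bright probes. Among 14914 probes with a mean log2 signal over 10, 0.261% differed by more than 2-fold and 0.65% by more than 1.5-fold, and 13 of the 15 probes were this bright. The median over the 9 genes was 0.03, against 0.0064 over all named genes tested. By their brightest probes 6 of the 9 genes lay above 0 and 3 below, beside 51.6% above and 48.3% below among all named genes.

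The error beside each value is the spot error, which combines the error estimates that the scanner software gave for both spots. It lay between 0.20 and 0.24 on the log2 scale. Probes printed 10 times on the array gave a measured spread between spots. Over a pair of arrays this spread was between 0.07 and 0.09 at the bright probes described here, and 0.22 at the dim ones. Both describe spots and leave out the variation between cultures. As a further scale, the 5th to the 95th percentile of the differences of all tested probes was taken at like signal. It ran from -0.29 to 0.27 at mean log2 signals between 10 and 12, from -0.23 to 0.24 between 12 and 14, and from -0.21 to 0.21 above 14. Each of the 15 probes lay inside the range for its own signal, and 13 lay within their spot error of 0. The spot error was 0.20 at every bright probe, wider than the measured spread between spots. A probe each of Insr, Irs1, Akt2 and Foxo1, and the single probes of Igf1r and Pik3ca, differed from 0 by more than that spread.

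Before normalization all 15 probes were brighter on the array labelled FTO, by 1.05-fold to 1.55-fold. This array was the brighter one as a whole, with a median ratio of 1.33 over tested probes of mean log2 signal above 10, and normalization takes that ratio out. All 15 probes were flagged well above background on both arrays, and none was saturated. Levels of different genes are not set against each other, because probes differ in how they hybridize.

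**Figure D1:**
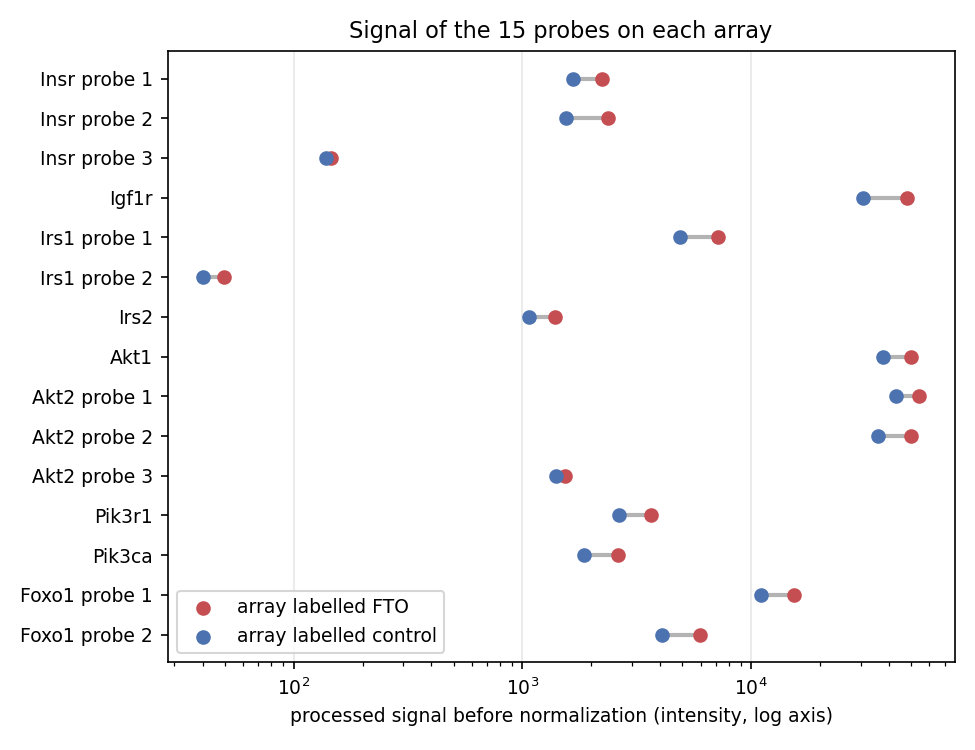
Processed signal before normalization (intensity, log axis) of each of the 15 probes of the 9 genes, with 1 point for the array labelled FTO and 1 for the array labelled control. Every red point lies to the right of its blue point, by 1.05-fold to 1.55-fold, and points of different probes are not comparable with each other.

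By its probe on these arrays Fto, the gene that was introduced, does not separate the cultures. Its single probe read 7301 with the FTO virus and 5179 with the empty vector, and after normalization its log2 difference was 0.06 ± 0.20 (spot error), and between 0.0007 and 0.23 under the other ways of processing. Directions below therefore rest on the labels. The paper reports FTO overexpression in MIN6 cells by Western blot, which measures protein. Whether the array probe reads the transcript of the vector was not tested. The beta cell label is borne by the signals. All 16 beta cell markers examined were well above background on both arrays, Ins1, Ins2, Pdx1 and Mafa among them. Their median difference was 0.02, with 8 above 0 and 8 below, from -0.24 at Ins2 to 0.45 at Slc2a2. Ins2, Slc2a2 and the brighter probe of Neurod1, at 0.36, lay outside the 5th to the 95th percentile of probes of like signal. The other Neurod1 probe came to 0.05. Summed signals before normalization were 1950037 for FTO and 1898254 for control. Glucagon (Gcg), the alpha cell hormone, was also bright, at 257411 and 243558, with a difference of 0.0084. Of 9 fibroblast, endothelial and immune markers 6 were tested, with summed signals of 1180 and 961 before normalization and a median difference of -0.18 after it, 5 of the 6 below 0. Pdgfrb and Lyz2 were not well above background, and Cd68 had no probe. Among those below 0, Cdh5 read 7.2 and 12.6, Ptprc 33.7 and 38.0 and Col3a1 35.7 and 42.4. These dim probes lay inside the 5th to the 95th percentile of probes of like signal. With normexp they came to -0.03, -0.04 and -0.22. Of 8 acinar and duct markers 6 were tested, with a median difference of -0.15, again with 5 of 6 below 0. Their summed signals before normalization were 63128 and 58491, of which Spp1 gave 61191 and 56860. Ptf1a and Sox9 were not well above background. In RNA of a whole culture, fewer cells of a type and less RNA per cell cannot be told apart.

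The receptors come first. Insr encodes the insulin receptor and had 3 probes, all listed under NM_010568. Here and below the signal for FTO is given first and that for control second, followed by the log2 difference after normalization ± its spot error. Insr probe 1 read 2218 and 1669, a difference of 0.01 ± 0.20. Probe 2 read 2355 and 1556, a difference of 0.21 ± 0.20. Probe 3 read 146 and 139, a difference of -0.14 ± 0.21. The probes thus disagreed in sign, and the gap of 0.35 between probes 2 and 3 was larger than their combined spot error of 0.29. No single direction can be given for Insr from these probes. Under the other scalings probe 2 lay between 0.17 and 0.33 and probe 3 between -0.35 and -0.08. Insr probe 1 lies in an area of the array labelled FTO where repeated probes lost signal, described below, and without that area the value for the gene is that of probe 2, at 0.21.

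Igf1r encodes the receptor for IGF1 and had a single probe (NM_010513). It read 47671 and 30844, the largest ratio of the 15 probes before normalization, and its log2 difference was 0.20 ± 0.20, a fold of 1.15. This is as large as its spot error, above the spread between repeated spots of 0.09, and just under the 95th percentile of all probes of like signal. Of 14914 bright probes, 1183 had a difference at least as high. The value was 0.20 with scaling to the 75th percentile, 0.25 with cyclic loess, 0.36 with median scaling and 0.20 with normexp background correction. Its spot also lies in the area of lost signal on the array labelled FTO.

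The IRS proteins are the adaptors that the receptors phosphorylate. Irs1 had a bright and a dim probe (NM_010570). The bright one read 7160 and 4866, a difference of 0.14 ± 0.20, and the dim one read 49.5 and 40.3, a difference of 0.19 ± 0.24. Both lay above 0 and within their spot error, and they differed from each other by 0.05, but with scaling to the 75th percentile the dim probe came to -0.13 and the bright one to 0.13. Irs2, the adaptor that mouse beta cells depend on, had a single probe (NM_001081212) with signals of 1391 and 1066. Its log2 difference was -0.0007 ± 0.20, close to the median of all genes.

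The starts of Irs1 and Irs2 are shown because both genes carry the same pair of short elements close to the start, a pair that was picked out after the matches of all motifs were seen, and because FOXO1, itself among the 9 genes, is known to act on Irs2. The sequences are those of RefSeq on GRCm38.p6, the 120 bases before the annotated start, 5′ to 3′ on the strand of the gene. Capitals mark CACGTG, the E-box that basic helix-loop-helix factors bind, and TGTTTTG, the reverse complement of CAAAACA, a FOXO-bound insulin response sequence. Irs1 is read from chr1:82291440-82291559 and Irs2 from chr8:11008930-11009049, both on the minus strand.
Irs1: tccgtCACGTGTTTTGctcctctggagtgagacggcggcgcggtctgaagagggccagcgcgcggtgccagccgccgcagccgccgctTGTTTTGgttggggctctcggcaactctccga
Irs2: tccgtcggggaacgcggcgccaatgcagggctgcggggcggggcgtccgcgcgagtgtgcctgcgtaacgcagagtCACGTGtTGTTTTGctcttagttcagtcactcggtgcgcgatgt
In Irs1 the E-box starts 115 bases before the gene and overlaps the first TGTTTTG by 2 bases, and another TGTTTTG follows 32 bases before the start. In Irs2 the E-box starts 44 bases before the gene and 1 base separates it from TGTTTTG. Promoter sequences were given for 8 of the 9 genes, with 13 starts in all, and Insr was not listed. Searched on both strands in the 250 bases before the start, CAAAACA was found in 5.56% of 32851 promoters, CACGTG in 6.02% and both in 0.295%. Among the 13 starts of these genes both were found at Irs1 and Irs2. In all 7 motifs were searched. GTAAACA, the core FOXO recognition sequence, was found in 3.17% of all promoters and at 1 of the starts, of Akt1, and the longer GTAAACAA, which contains it, in 1.07% and at the same start. TGACGTCA, the cyclic AMP response element, was found in 1.55% and at none of the starts. Its core TGACG was found in 17.8% and at 4 starts, of Akt2, Irs1 and Pik3r1, and TGACGCA, which contains that core, in 1.75% and at 1 start, of Akt2. A match describes the letters of the window and is no evidence of binding. The arrays showed no difference past 1.5-fold for either Irs gene, so these elements are given for context and not as the source of a difference.

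PI3K was read through a catalytic and a regulatory subunit. Pik3ca encodes the catalytic subunit p110 alpha, and its single probe (NM_008839) read 2603 and 1863, a difference of 0.09 ± 0.20. Pik3r1 encodes the regulatory subunit p85 alpha and its shorter forms. Its single probe (NM_001077495) read 3627 and 2636, a difference of 0.06 ± 0.20. Both subunits lay above 0 and within their spot error, and the spread between repeated spots at this signal was 0.08. Which forms of Pik3r1 the probe binds cannot be read from its accession.

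The AKT kinases act downstream of PI3K, and Akt2 is the form best known from insulin action. Akt1 had a single probe (NM_009652) that read 49999 and 37673, a difference of -0.0054 ± 0.20. Akt2 had 3 probes under NM_001110208. Akt2 probe 1 read 54023 and 42998, a difference of -0.09 ± 0.20. Akt2 probe 2 read 49761 and 35788, a difference of 0.06 ± 0.20. Akt2 probe 3 read 1537 and 1403, and its difference of -0.26 ± 0.20 was the largest in size of the 15 probes. It lay between -0.29 and -0.13 under the other scalings. Probes 1 and 2 of Akt2 lay on either side of 0 and inside their spot error. Probe 3 lay outside its spot error and 0.32 below probe 2, a gap above their combined spot error of 0.29.

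Foxo1 encodes the transcription factor that AKT holds out of the nucleus. Its probe 1 (NM_019739) read 15325 and 10985, a difference of 0.03 ± 0.20. Probe 2, under the same accession, read 5954 and 4066, a difference of 0.13 ± 0.20. Both probes lay above 0, within their spot error, and 0.09 apart.

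**Figure D2:**
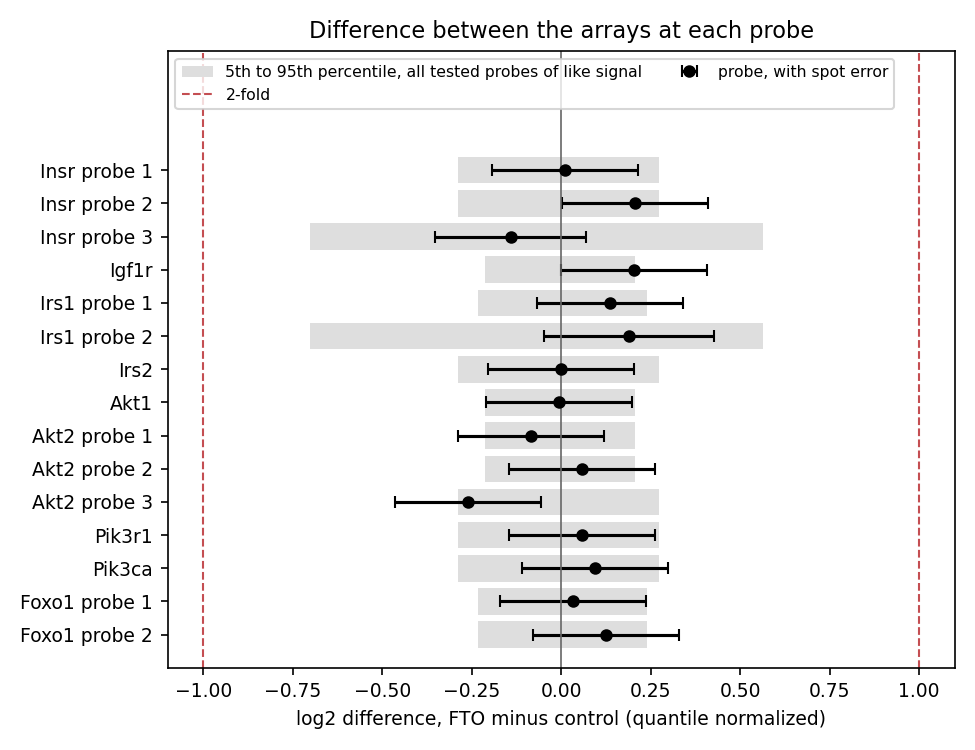
Log2 difference between the arrays, FTO minus control after quantile normalization, at each of the 15 probes (points, bars are ± the spot error of the probe). Grey bands are the 5th to the 95th percentile of all tested probes of like signal, and dashed lines mark 2-fold. Every point lies inside its band, from -0.26 at Akt2 probe 3 to 0.21 at Insr probe 2.

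Agreement between probes could be examined for 4 genes (Insr, Irs1, Akt2 and Foxo1), which give 8 pairs of probes. The pairs share probes and are not independent. In 4 of the 8 pairs the probes lay on the same side of 0, namely the pairs of Irs1 and Foxo1 and 1 pair each of Insr and Akt2. Over all genes with several probes well above background on both arrays, 59.5% of 6673 pairs did so. The median gap between the probes of a pair was 0.16 for these genes and 0.14 for all. In 6 of the 8 pairs the gap was smaller than the combined spot error, the exceptions being the pairs of Insr and Akt2 named above.

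The surface of the array labelled FTO was uneven. In 6 of 35 blocks at least 15% of the spots of repeated probes fell short of their own probe's median by over 0.5 (log2). Over these 6 blocks the share was 29%, and it was 0.69% in the same blocks on the array labelled control. The other blocks came to 1.86%, a gap that follows in part from how the blocks were picked, and 1 of them reached 12.9%. Spots of 5 of the 15 probes lie in the 6 blocks, namely Insr probe 1, Igf1r, Akt2 probe 2, Pik3r1 and Foxo1 probe 2. The Irs2 spot lies in 1 of 2 such blocks on the array labelled control. These 5 probes had a median difference of 0.06 and the 10 others of 0.02. Bright probes of all genes had a median of 0.03 inside the blocks and of -0.0012 outside, so at this signal the probes in the blocks were not lower on the array labelled FTO.

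The other genes of the pathway were grouped by role in 7 lists that hold 115 genes, of which 110 were tested. None differed by 2-fold by its brightest probe, 1 was more than 1.5-fold higher on the array labelled FTO and 3 were more than 1.5-fold lower, which is 3.64% together. Among all named genes tested 2.8% were more than 1.5-fold higher and 4.15% more than 1.5-fold lower. The median log2 difference of the 110 pathway genes was -0.02, and 50 of them lay above 0 and 60 below. The counts past 1.5-fold depended on the scaling and on the choice of probe. With the 75th percentile none was higher and 8 were lower, with cyclic loess or median scaling none was higher and 4 were lower, and with normexp Trib3 alone was lower and none was higher. With the probe of largest absolute difference for each gene, 3 were higher and 4 were lower.

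Ligands and binding proteins had the lowest list median, -0.14 over 11 tested genes, of which 2 lay above 0 and 9 below. Igf2, a fetal growth factor that signals through Igf1r and Insr, read 480 and 572, a difference of -0.60 ± 0.20, the lowest of the list. It lay between -0.68 and -0.47 under the other ways of processing. Igfbp3, a carrier of IGFs, was the highest of the list at 0.0070, and -0.26 with scaling to the 75th percentile. The insulin genes depended on the scaling. Ins1 read 215620 and 220341, a difference of -0.14 ± 0.20, and Ins2 read 276722 and 320363, a difference of -0.24 ± 0.20. With scaling to the 75th percentile these became -0.46 and -0.64. Such a fall was not particular to the insulin genes. Under the same scaling the very bright markers Gcg, Chga and Iapp went from 0.0084, -0.0050 and -0.19 to -0.35, -0.39 and -0.56. By quantitative PCR the paper reports no effect of FTO on either insulin transcript.

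Receptors and adaptors other than the genes above had a median of 0.0045 over 12 genes. The highest was Gab1, a docking protein, at 0.44 ± 0.36 with signals of 20.1 and 14.7, and at 0.03 with scaling to the 75th percentile. The lowest was Irs3, an IRS family member found in rodents, which read 149 and 209, a difference of -0.73 ± 0.21. Irs3 lay between -0.92 and -0.53 under the other ways of processing, and with normexp, at -0.53, it was no longer past 1.5-fold. The remaining PI3K subunits with Pdpk1, the gene of the kinase PDK1, had a median of 0.09 over 10 genes, 8 of them above 0. By brightest probe the extremes were both class II enzymes, Pik3c2a at 0.34 ± 0.20 and Pik3c2b at -0.34 ± 0.22, the latter at -0.59 with scaling to the 75th percentile. Dimmer probes went further, with Pik3cg at 0.72, beside 0.22 by its brightest probe, and Pik3c2b at -0.71. With normexp these dimmer probes came to 0.30 and -0.11. The dimmer Pik3cg probe lay above the 95th percentile of probes of like signal, 0.56.

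Downstream of AKT, mTOR complex genes and AKT substrates had a median of 0.03 over 19 genes. Rheb, the small GTPase that activates mTOR, was the highest at 0.21 ± 0.20. Eif4ebp2, a repressor of translation that mTOR inactivates, was the lowest, which read 2607 and 2934, a difference of -0.58 ± 0.20, and its spot lies in the blocks of lost signal on the array labelled FTO. The Ras-MAPK arm had a median of -0.02 over 14 genes, from -0.20 at the kinase gene Rps6ka3 to 0.31 at Sos1, which encodes an exchange factor of Ras.

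Negative regulators of insulin signalling had a median of -0.07 over 23 genes, 9 above 0 and 14 below. Trib3, which encodes a pseudokinase that binds AKT and is also induced by the stress factors ATF4 and CHOP, was the lowest of all 110 genes. Its single probe (NM_175093) read 22924 and 29975, a difference of -0.82 ± 0.20 and a fold of 0.566. Of the bright probes 47 of 14914 (0.315%) lay as low or lower, but Trib3 was named for being low in these same values. Trib3 lay between -0.82 and -0.65 under the other ways of processing. The highest of the list was the phosphatase gene Ptpn2, at 0.19 ± 0.20.

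FOXO factors and FOXO target genes formed the last list. Whether these genes follow FOXO1 activity in MIN6 cells was not tested. Their median was -0.05 over 21 genes, with 8 above 0 and 13 below. The highest was Pck1, a gluconeogenic enzyme, at 0.64 ± 0.34 with signals of 23.5 and 14.7, and with normexp it came to 0.18. Its spot lies in the blocks of lost signal on the array labelled FTO. The lowest was Sesn2, a stress-induced inhibitor of mTOR, at -0.36 ± 0.20.

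**Figure D3:**
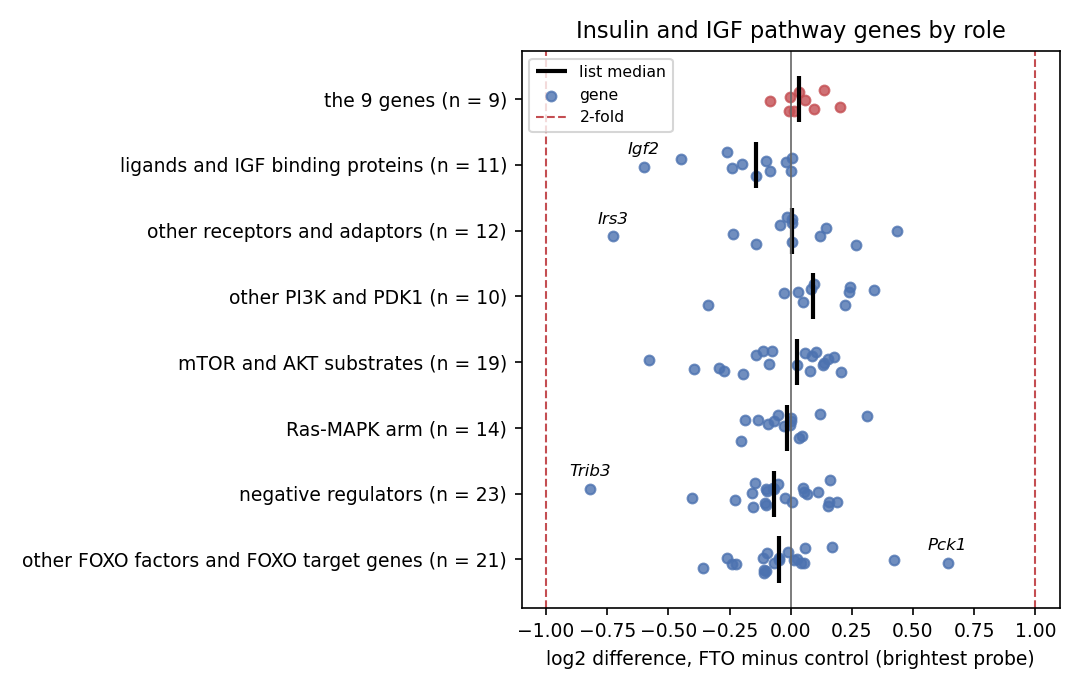
Log2 difference, FTO minus control, of the brightest probe of each gene (points) in the 9 genes (red) and in 7 lists of other pathway genes (blue), with the list median (black bar) and 2-fold (dashed lines). No gene reaches 2-fold, and the 4 named genes, Igf2, Irs3, Trib3 and Pck1, are those past 1.5-fold after quantile normalization.

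Differences also depended on the scaling of the arrays, by amounts that varied between genes. The median over all named genes was 0.0064 after quantile normalization, -0.06 after scaling to the 75th percentile and 0.10 after scaling to the median, and it was 0.0002 after cyclic loess. With median scaling all 9 genes lay above 0, with a median of 0.20, which is 0.09 above the median of all genes under that scaling. Each of the 9 genes was between 0.12 and 0.18 higher than after quantile normalization, while Ins1 and Ins2 were lower, at -0.30 and -0.48. Gcg, also very bright, was lower as well, at -0.19. Igf1r was the highest of the 9 genes and Akt2 the lowest under each of the 5 scalings drawn, although with normexp Akt2 at -0.03 was close to Akt1 at -0.02. Insr, Irs2, Akt1 and Akt2 changed sign between scalings, and Igf1r, Irs1, Pik3ca, Pik3r1 and Foxo1 lay above 0 under all of them. Among the other pathway genes, median scaling brought the list medians of the Ras-MAPK arm, the negative regulators and the FOXO targets above 0, to 0.15, 0.070 and 0.068. The ligand list stayed below 0, at -0.20. Scaling to the 75th percentile brought the mTOR genes with AKT substrates to -0.014 and the other receptors and adaptors to -0.022. Normexp brought the mTOR list to -0.032 and the negative regulators to 0.0078, and cyclic loess brought the Ras-MAPK arm to 0.017.

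**Figure D4:**
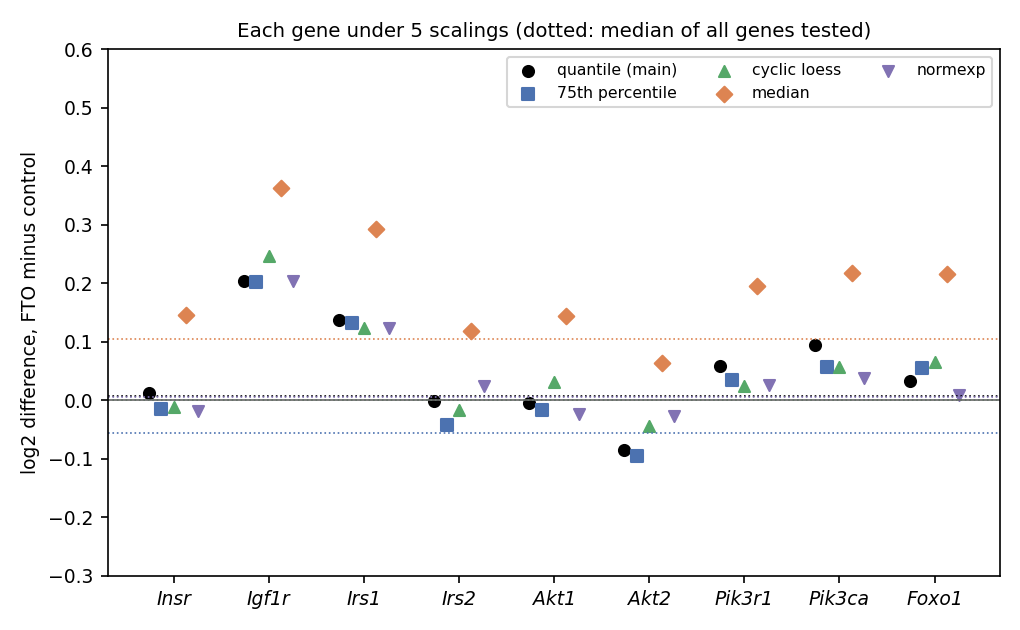
Log2 difference, FTO minus control, of the brightest probe of each of the 9 genes under 5 scalings (symbols), with the median of all named genes tested under each scaling as a dotted line of the same colour. Median scaling lifts all 9 genes together with its dotted line at 0.10, and Igf1r is the highest gene under each scaling.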

How the data were processed

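RNA of 1 MIN6 culture transduced with FTO and 1 transduced with empty vector was hybridized to single-colour Agilent arrays. The deposited spot tables give processed intensities from Agilent Feature Extraction 11.0.1.1, with background and surface trend removed, software flags, error estimates and raw median intensities. The authors' deposited series table holds log2 values that the methods describe as quantile normalized in GeneSpring. Per the labels each array is 1 sample.

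Here, control and outlier spots were left out, spots of a probe were averaged as log2 intensities, and limma 3.58.1 (R 4.3.3) was used for quantile normalization, followed by Python 3.11.15, pandas 2.3.3 and numpy 2.4.6, with matplotlib 3.10.9 for figures. Probes were tested where at least 50% of their spots were well above background on either array. Symbols came from RefSeq accessions of GRCm38.p6 and named 27224 of 39417 probes. The array design names an older build, so no probe position is given. A gene is represented by its brightest probe. The genes named beside the 9 are Fto, Ins1, Ins2 and, in each list, genes past 2-fold and the highest and lowest gene among those whose brightest probe passed the background flag on each array. Pik3cg was named for its dimmer probe, after its values were seen. The cell type markers and the motif pair of Irs1 and Irs2 were named after their values were seen. The 9 genes, the lists and the steps were chosen with earlier results of these data known, and 1 listed gene is not reported here. The 35 surface blocks hold 79 repeated probes of log2 signal between 4.5 and 8. Alternatives were other scalings, normexp with an offset of 50, the authors' table, background filters, other choices of probe and leaving out blocks of lost signal. The raw median intensity stood in for the mean, which the spot tables do not list. The calculation was tested on simulated data with planted differences larger than those of the 9 genes, so that test does not bear on differences as small as theirs. The number of arrays limits the precision.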

Additional observations from a re-analysis of the deposited data

How the results depend on the processing

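No alternative brought any of the 9 genes past 2-fold, and at 1.5-fold the count was also 0. Each gene moved by less than its spot error under every alternative that could be computed. Without the blocks of lost signal Igf1r, Irs2 and Pik3r1 have no probe left. The pairs of probes that remain are the Irs1 pair and 1 pair each of Insr and Akt2. Of these, 2 pointed the same way, those of Irs1 and Akt2. The count of 4 in the main processing came from more pairs, so the counts do not show a fall in agreement. Median scaling, under which the median of all genes was 0.10, gave a median of 0.20 for the 9 genes, 0.14 for other receptors and adaptors, 0.23 for other PI3K genes and PDK1, 0.15 for mTOR genes and AKT substrates, 0.15 for the Ras-MAPK arm, 0.070 for negative regulators and 0.068 for FOXO targets, and -0.20 for ligands. The ligand list was otherwise at -0.36 with the 75th percentile, -0.21 with cyclic loess, -0.068 with normexp and -0.22 without the blocks. With normexp the mTOR list was at -0.032 and the negative regulators at 0.0078, without the blocks the mTOR list was at -0.075, and with the median over probes the negative regulators were at -0.020. The cause was not tested. Genes past 2-fold numbered 497 by the main processing and between 55, with normexp, and 891, without a background filter, among all named genes. Further counts were 731 with the 75th percentile, 218 with the stricter filter, 263 without the blocks and 334 with dim values raised. The counts of other pathway genes past 1.5-fold by scaling and by choice of probe were added after seeing the data. No paired analysis was possible because each condition has 1 array, and for the same reason no array could be left out.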
